A study of Mus musculus with 6 samples.

Results

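A set of 10 genes of immune checkpoints and co-stimulation was followed in macrophages of the healing infarct. The genes were taken by symbol from the deposited table of read counts, and all 10 were found among its 54532 genes: Cd274, Pdcd1lg2, Cd80, Cd86, Cd40, Cd83, Icosl, Tnfsf9, Havcr2 and Vsir. The rule itself uses names and no measured value, but the 10 genes were chosen with earlier results of these data known. All 10 passed the filter on low counts and were tested with 14522 genes. Cells came from C57BL/6 mice aged 12 weeks, 7 days after permanent occlusion of the left anterior descending coronary artery. Both groups carried floxed alleles of the integrin α5 gene. The 3 control libraries came from ITGA5 fl/fl littermates without Cre, and the 3 Myα5KO libraries from mice that also carried LyzM-Cre, a recombinase expressed from the lysozyme M promoter and therefore active in macrophages, monocytes and neutrophils. Hearts of individual mice were digested, Ly6G+ neutrophils were removed on a magnetic column and CD11b+ cells were kept, so the groups differ in Cre as well as in Itga5, and each library is a mixture of CD11b+ cells.

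T lymphocytes need, besides antigen, a second signal from the presenting cell. CD80 and CD86 give it by binding CD28, and deliver the opposite signal when CTLA-4 takes CD28's place. PD-L1 (Cd274) and PD-L2 (Pdcd1lg2) bind PD-1 and restrain T cells. Macrophages carry several of these ligands at once and raise many of them after interferon-γ or signals that act through NF-κB.

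Itga5 was reduced to 8.02% of the control level (log2 fold change -3.64, SE 0.08, edgeR adjusted p 4.42e-12), with 895 to 939 counts per Myα5KO library against 9666 to 10536 in ITGA5 fl/fl. Totals lay between 15424451 and 18419287 counts per library. Of the tested genes, 517 were higher and 754 lower in Myα5KO, but with scaling by library size alone these numbers were 1212 and 518. Of 9 macrophage markers, 1 was higher and 1 lower, against 3.56% and 5.19% of all tested genes. These were Fcgr1 (log2 fold change 0.27, edgeR adjusted p 0.0215) and Cd14 (-0.45, edgeR adjusted p 0.00413). The other 7 did not pass the test. Among them were Csf1r (2188 in controls and 2153 in Myα5KO as CPM, the count scaled to library size with TMM factors), Adgre1 (1313 and 1272 CPM) and Cd68 (896 and 860 CPM, edgeR adjusted p 0.763 for Adgre1 and 0.652 for Cd68).

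The clearest change among the 10 genes was in Cd274, which lies on chromosome 19 beside Pdcd1lg2 and head to head with Plgrkt, a plasminogen receptor gene. Reference sequence from RefSeq promoter windows of GRCm38.p6 is shown for both called ligands, Cd274 and Icosl, and for Pdcd1lg2, the uncalled neighbour of Cd274. Each is on the plus strand and was kept free of annotated exons. The Cd274 stretch, chr19:29367391-29367437, runs from the edge of the annotated span of Plgrkt to the RefSeq start of Cd274 at 29367438. The Pdcd1lg2 stretch is chr19:29410669-29410918 and the Icosl stretch is chr10:78069118-78069301. Capitals mark matches to the NF-κB consensus.
Cd274: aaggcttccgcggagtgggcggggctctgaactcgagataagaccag
Pdcd1lg2: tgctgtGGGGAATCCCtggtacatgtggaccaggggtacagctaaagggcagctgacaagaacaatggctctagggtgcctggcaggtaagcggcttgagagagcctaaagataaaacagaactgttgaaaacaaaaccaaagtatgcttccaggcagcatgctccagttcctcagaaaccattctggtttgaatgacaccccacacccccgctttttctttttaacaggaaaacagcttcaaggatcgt
Icosl: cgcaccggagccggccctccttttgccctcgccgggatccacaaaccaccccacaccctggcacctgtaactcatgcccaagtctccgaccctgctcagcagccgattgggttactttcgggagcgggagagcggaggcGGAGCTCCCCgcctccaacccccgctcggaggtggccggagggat

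Windows of 300 bases, from 250 before to 50 after the RefSeq start, were available for 6 of the 10 genes (Cd274, Pdcd1lg2, Cd80, Icosl, Havcr2 and Vsir). They were searched on both strands for 4 motifs. The gamma-activated site TTCNNNGAA is held by 8.3% of all 32851 windows, the interferon-stimulated response element by 3.44%, the NF-κB consensus by 8.46% and the AP-1 motif TGANTCA by 7.81%. The NF-κB consensus was found in the Pdcd1lg2 window, at positions -244 to -235 from the start, and in the Icosl window, at -111 to -102. The AP-1 motif was found in the Cd80 and Havcr2 windows. No 2 of these matches overlapped. The Cd274 and Vsir windows held none of the 4 in these letters.

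PD-L1 mRNA was lower in every Myα5KO library than in any control. Cd274 (ENSMUSG00000016496, GRCm38 chromosome 19, 29367455 to 29388095, plus strand, 7 exon blocks) had 149, 165 and 164 CPM in ITGA5 fl/fl replicates 1 to 3 and 85.8, 96.2 and 86.6 CPM in Myα5KO replicates 1 to 3. All 3 Myα5KO libraries lay well below all 3 controls, and the gap between the groups was wider than the range within either. The means were 159 ± 8.91 and 89.5 ± 5.78 CPM (SD, n = 3 each), so Myα5KO kept 56.2% of the control value (log2 fold change -0.83, SE 0.07, 95% interval -0.98 to -0.68, edgeR adjusted p 2.81e-05). Cd274 had the ninth smallest p of the 14522 tested genes. By size of decrease it was number 43 among 8301 genes with a mean of at least 10 CPM, of which 642 were called lower. GENCODE M21 lists an antisense transcript over 511 exonic bases of Cd274 (14.1% of them). The strand setting of the counting is not stated, so reads of either strand cannot be told apart there.

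The call of Cd274 held in all 6 fits that each left out a library, with log2 fold changes from -0.89 to -0.81 and adjusted p in edgeR from 2.41e-05 to 0.000434. It also held with DESeq2 (-0.84) and with library-size scaling (-0.75). A test that required at least a 1.5-fold change did not call it (glmTreat in edgeR, adjusted p 0.209, the upper end of a range of 1e-21 to 0.209 over its alternatives). In the sorted mixture, fewer Cd274-expressing cells and less Cd274 RNA per cell cannot be told apart. Relative to Csf1r, the receptor of macrophage colony-stimulating factor, the FPKM of Cd274 was 0.0873, 0.103 and 0.105 in controls and 0.0526, 0.0573 and 0.0586 in Myα5KO. This ratio was chosen after the values were known, and its groups did not overlap.

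**Figure D1:**
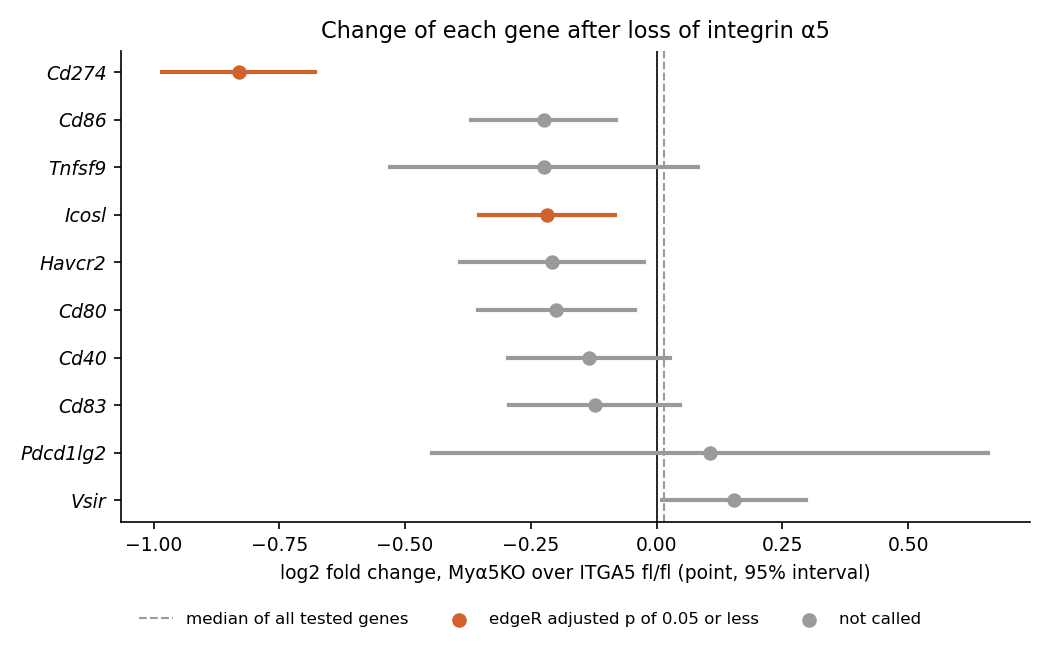
Log2 fold change (Myα5KO over ITGA5 fl/fl) of the 10 genes with its 95% interval from the edgeR fit on 3 libraries per group. Cd274 stands apart at -0.83, while the other points lie between -0.22 and 0.15 and only Icosl among them was called.

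The mRNA of the second ligand of PD-1 was scarce. Pdcd1lg2 (ENSMUSG00000016498, chromosome 19, 29410919 to 29471157, plus strand) held 31, 28 and 26 counts in ITGA5 fl/fl and 32, 32 and 41 counts in Myα5KO. The libraries of both groups overlapped. Its mean was 1.73 ± 0.309 CPM against 1.86 ± 0.259 CPM (SD, n = 3 each). The log2 fold change of 0.11 had an interval from -0.45 to 0.66 (edgeR adjusted p 0.846), so at this depth neither a decrease nor an increase of moderate size could be detected. Per gene length, Cd274 stood 32.6, 45.5 and 50.4 times above Pdcd1lg2 in the control libraries and 22.9, 25.5 and 18.2 times above it in Myα5KO. Of the mRNAs of both PD-1 ligands, that of PD-L1 was thus far more abundant in every library.

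Neither CD28 ligand passed the test. Cd86 mRNA was the more abundant of both. It had 76.8, 73.5 and 70.5 FPKM (counts scaled to gene length and library depth) in controls and 60.3, 66.3 and 61.6 in Myα5KO. On the CPM scale Cd86 (ENSMUSG00000022901, chromosome 16, 36603869 to 36666081, minus strand) had 282, 271 and 259 in controls and 221, 244 and 229.5 after loss of α5. The groups did not overlap, but the difference just missed the threshold (log2 fold change -0.22, SE 0.07, interval -0.37 to -0.08, edgeR adjusted p 0.0542). It passed with DESeq2, with upper quartile scaling and when at least 10 counts were required in every library. Its adjusted p ranged from 0.0189 to 1 over the alternatives.

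Cd80 (ENSMUSG00000075122, chromosome 16, 38455561 to 38496335, plus strand) had 68.6, 78.2 and 78.5 CPM in ITGA5 fl/fl and 68.7, 65.5 and 62.2 CPM in Myα5KO. The lowest control lay no higher than the highest Myα5KO library. Its log2 fold change was -0.20 (SE 0.07, interval -0.36 to -0.04, edgeR adjusted p 0.113), and no alternative called it. The ratio of Cd86 to Cd80 per gene length, 3.66 ± 0.432 in ITGA5 fl/fl and 3.58 ± 0.279 in Myα5KO (SD, n = 3 each), overlapped between the groups. The ratio of Cd274 to Cd86 did not: it was 0.534 to 0.641 in controls and 0.381 to 0.399 in Myα5KO. These ratios are descriptions without a test.

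Icosl encodes the ligand of ICOS, a relative of CD28 on activated T cells, and was the only other gene called. Icosl (ENSMUSG00000000732, chromosome 10, 78069302 to 78083913, plus strand) had 89.3, 88.0 and 91.3 CPM in ITGA5 fl/fl and 77.2, 80.1 and 73.6 CPM in Myα5KO. Controls were tightly grouped and lay above all 3 Myα5KO libraries. The means were 89.6 ± 1.66 and 77.0 ± 3.25 CPM (SD, n = 3 each), and the difference on the log2 scale was -0.22 (SE 0.06, edgeR adjusted p 0.0463). This call was close to the threshold. Dropping any 1 of the 6 libraries ended it (adjusted p 0.0813 to 0.145), as did DESeq2 (0.0563) and the replicate number as a block. Its adjusted p went from 0.0315 to 1 over the alternatives.

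Thus 2 of the 10 genes passed the test, both lower, against 5.19% of all tested genes called lower and 8.75% called in either direction. Because the 10 were chosen with earlier results of these data known, the comparisons with all tested genes are descriptions only. Over the 10 the median log2 fold change was -0.20, against 0.01 over all tested genes. Of the 10, 8 were negative, against 6854 of the 14522 tested genes. At an unadjusted p under 0.05 there were 6 in either direction, with Vsir, which was higher, among them, against 23.1% of all tested genes. DESeq2 called 2 of the 10, Cd274 and Cd86, against 9.24% of all genes. The 3 Myα5KO libraries lay below all controls for 4 genes (Cd274, Cd86, Icosl and Cd83) and above them for 1 (Vsir). Over all tested genes these shares were 13.8% and 14.9%, or 28.6% for separation in either direction.

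**Figure D2:**
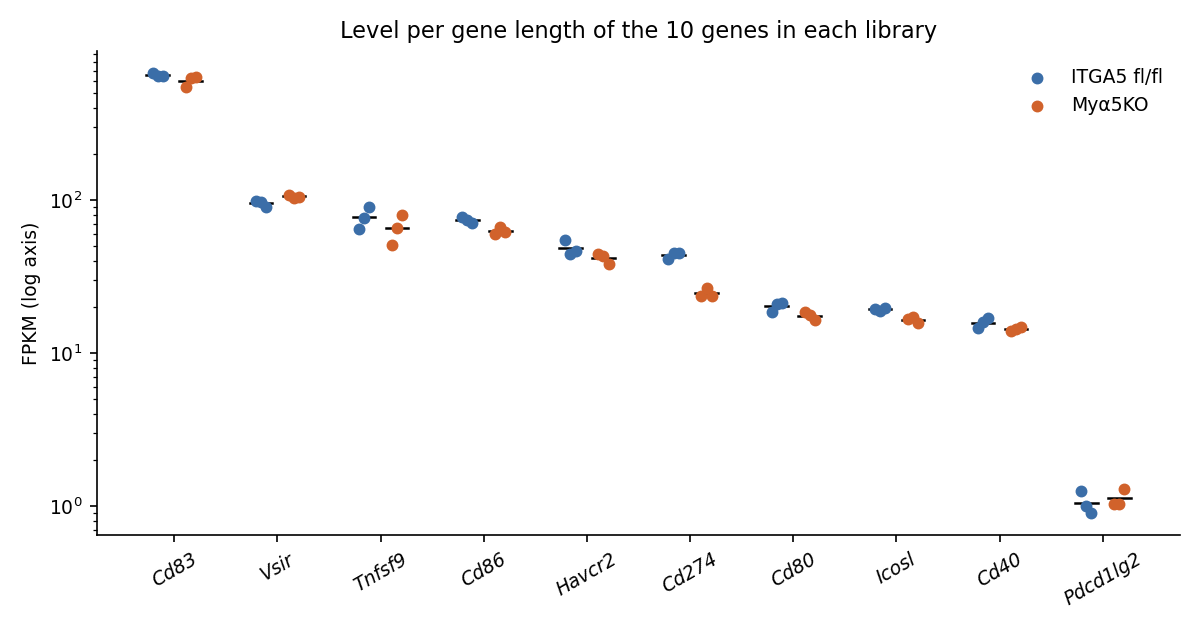
FPKM of each gene on a log axis, 1 point per library, with a bar at the mean of the 3 libraries of a group. Genes are ordered by their level in ITGA5 fl/fl, from Cd83 near 658 to Pdcd1lg2 near 1.05, and Cd274 shows the widest gap between the groups.

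CD40 and CD83 mark activation of presenting cells. CD40 receives the signal of CD40 ligand from T cells, and CD83 is a surface protein that keeps MHC class II and CD86 on the cell by opposing their ubiquitination. Cd83 (ENSMUSG00000015396, chromosome 13, 43784775 to 43803132, plus strand) was by far the most abundant of the 10, with 678, 644 and 650.4 FPKM in ITGA5 fl/fl and 545, 623 and 636 FPKM in Myα5KO, a level above that of 99.6% of tested genes. The lowest control exceeded the highest Myα5KO library by a narrow margin. Its log2 fold change of -0.12 did not pass the test (SE 0.08, interval -0.29 to 0.05, edgeR adjusted p 0.38). Cd40 (ENSMUSG00000017652, chromosome 2, 165055627 to 165072948, plus strand) had 49.4, 54.4 and 58.2 CPM in ITGA5 fl/fl and 47.5, 49.0 and 51.2 CPM in Myα5KO. These ranges overlapped, and the log2 difference was -0.13 (SE 0.07, interval -0.30 to 0.03, edgeR adjusted p 0.308).

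Tnfsf9 encodes the ligand of 4-1BB, a co-stimulatory receptor of activated T cells. Tnfsf9 (ENSMUSG00000035678, chromosome 17, 57105325 to 57107757, plus strand) varied more between hearts of a group than between groups. It had 83.2, 99.7 and 116 CPM in ITGA5 fl/fl and 65.9, 84.7 and 105 CPM in Myα5KO. The log2 fold change was -0.22 with the widest error after that of Pdcd1lg2 (SE 0.14, interval -0.53 to 0.08, edgeR adjusted p 0.376), and it moved from -0.41 to -0.07 when single libraries were left out. Exons of the noncoding gene Gm11110, on the other strand, cover 192 exonic bases of Tnfsf9 (14.9%). Gm11110 itself held 34 to 61 counts per library, against 1237 to 2033 for Tnfsf9.

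Havcr2 and Vsir encode inhibitory proteins, and neither gene passed the test. Havcr2 encodes TIM-3, which macrophages and exhausted T cells carry. Havcr2 (ENSMUSG00000020399, chromosome 11, 46454935 to 46481255, plus strand) had 149.6, 121 and 127 CPM in ITGA5 fl/fl and 122, 118 and 105 CPM in Myα5KO. ITGA5 fl/fl replicate 1 was high and the groups overlapped (log2 fold change -0.21, SE 0.08, interval -0.39 to -0.03, edgeR adjusted p 0.157). Vsir encodes VISTA, a B7 family protein of myeloid cells that restrains T cells. Vsir (ENSMUSG00000020101, chromosome 10, 60346851 to 60372684, plus strand) had 493, 489 and 455 CPM in controls and 544, 518 and 537 CPM in Myα5KO, so that all 3 Myα5KO libraries were higher. The log2 fold change of 0.15 did not pass the test (SE 0.07, interval 0.01 to 0.30, edgeR adjusted p 0.179). With library-size scaling it was called (0.24, adjusted p in edgeR 0.0351, the lower end of its range of 0.0351 to 1). Vsir lies within Cdh23, a gene on the other strand, and shares 0 exonic bases with it.

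The order of levels per gene length was the same in both groups. In ITGA5 fl/fl it ran from Cd83 (658 ± 18 FPKM) over Vsir (95.1 ± 4), Tnfsf9 (76.8 ± 12.5), Cd86 (73.6 ± 3.17), Havcr2 (48.6 ± 5.59), Cd274 (43.8 ± 2.37), Cd80 (20.2 ± 1.48), Icosl (19.3 ± 0.409) and Cd40 (15.8 ± 1.28) to Pdcd1lg2 (1.05 ± 0.188 FPKM, SD, n = 3 each). Neighbours whose control libraries overlapped were Tnfsf9 with Cd86, Havcr2 with Cd274 and Cd80 with Icosl. After loss of α5 the level of Havcr2 was 41.9 ± 3.55 and that of Cd274 was 24.5 ± 1.68 FPKM, and these no longer overlapped. The ratio of Vsir to Cd274 was 2.18 ± 0.195 in ITGA5 fl/fl and 4.32 ± 0.372 in Myα5KO, without overlap.

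**Figure D3:**
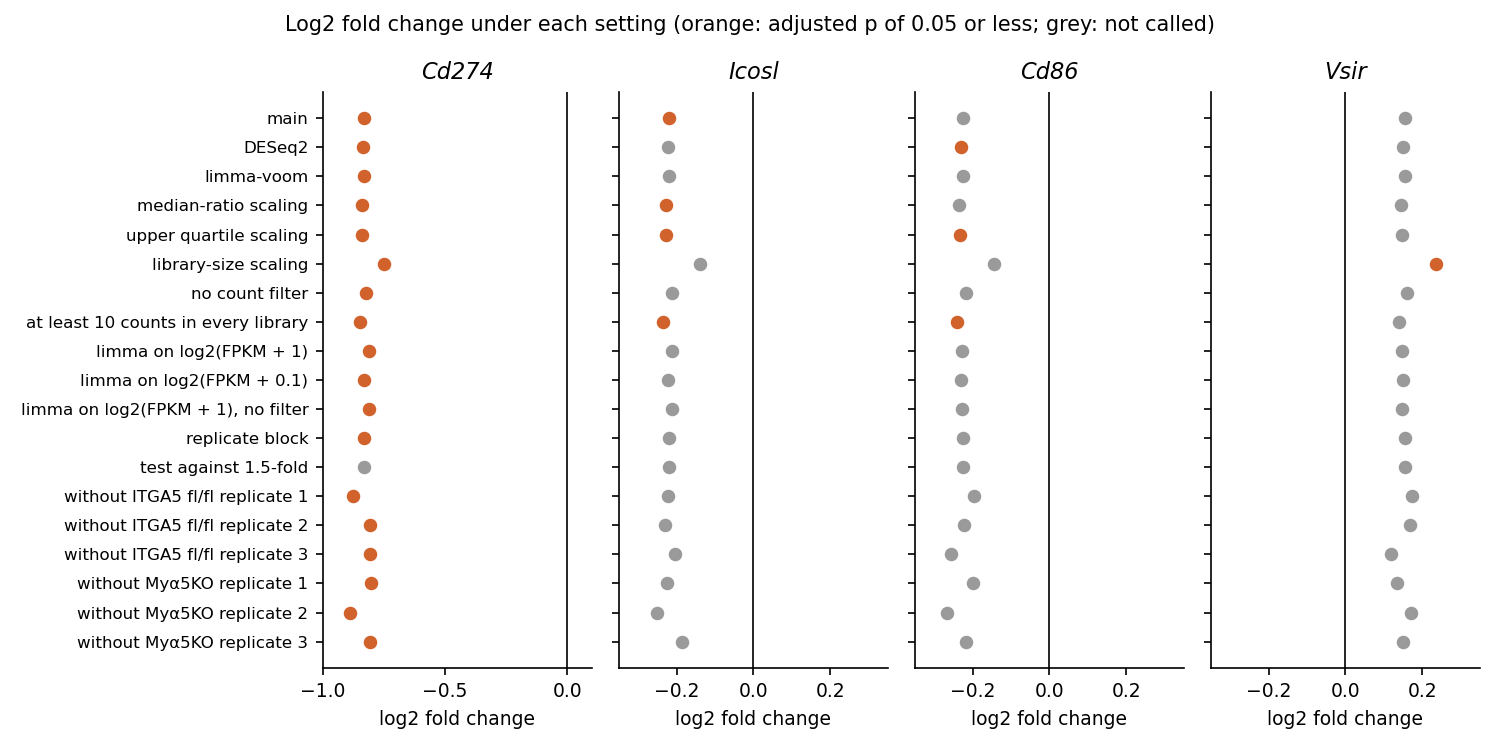
Log2 fold change of Cd274, Icosl, Cd86 and Vsir under the main fit and 18 other settings, in orange where the adjusted p was 0.05 or less and in grey where it was not. Cd274 stayed between -0.89 and -0.75 and was called in 17 of the 18, whereas Icosl and Cd86 were each called in 3 and Vsir in 1.

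Genes near Cd274 were examined after its decrease was known. Of 21 other genes within 500 kb, 13 were tested and 3 were called, all lower: Jak2, Plgrkt and Ric1. The background share of genes called lower is 5.19%. Jak2 ends 54375 bases before Cd274 and encodes a kinase of the interferon-γ receptor. It had 266, 228 and 237 CPM in ITGA5 fl/fl and 167, 167 and 134 CPM in Myα5KO (log2 fold change -0.64, SE 0.09, edgeR adjusted p 0.00104). Plgrkt, whose annotated span lies 65 bases from that of Cd274 on the other strand, had 50.3, 45.9 and 46.5 CPM against 37.5, 37.8 and 42.2 CPM (log2 fold change -0.28, edgeR adjusted p 0.0359). The RefSeq promoter window of Plgrkt lay farther off, at 29361822 to 29362121. Ric1, beyond Pdcd1lg2, had a log2 fold change of -0.38 (98.6 and 75.6 CPM, edgeR adjusted p 0.00685). The groups were separate for each of these genes, as they were for 28.6% of all tested genes in either direction. They were also separate for uncalled Ermp1, which had 32.2, 31.1 and 31.5 CPM in controls and 37.7, 37.2 and 35.9 CPM in Myα5KO (0.22, edgeR adjusted p 0.0727). Uncalled genes lay on both sides and among the called ones, with Pdcd1lg2 and Insl6 nearer to Cd274 than Jak2.

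**Figure D4:**
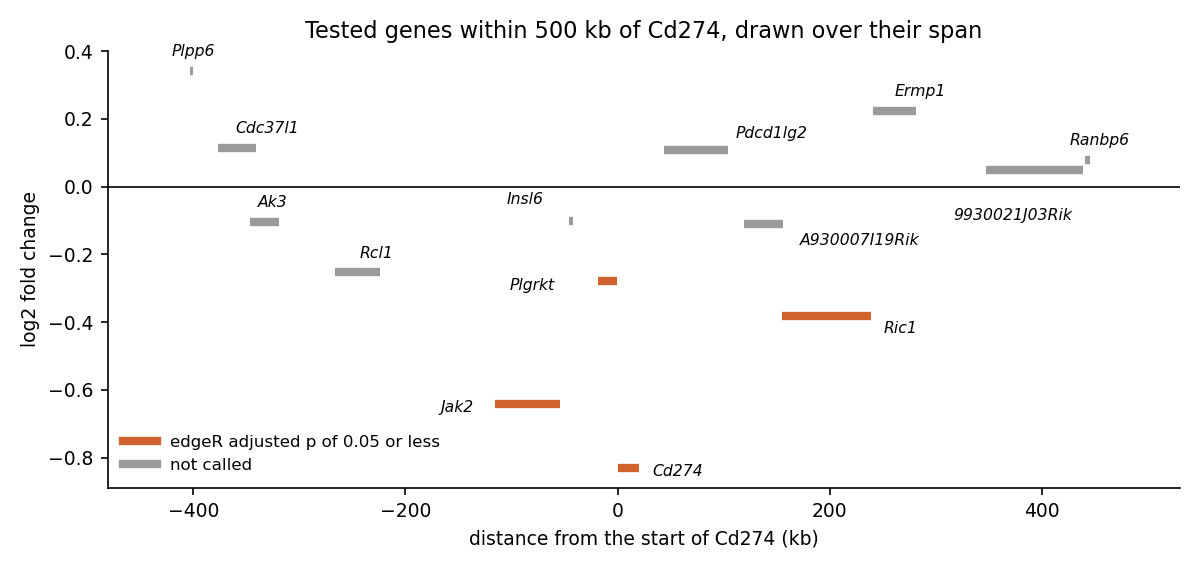
Log2 fold change (Myα5KO over ITGA5 fl/fl) of the 14 tested genes within 500 kb of Cd274, each drawn as a bar over its span against the distance from the start of Cd274 in kb. The 4 called genes, Jak2, Plgrkt, Cd274 and Ric1, in orange, lie side by side apart from uncalled Insl6, Pdcd1lg2 and A930007I19Rik, whose mean level was below 2 CPM in each group.

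To place Cd274 among its known inputs, 15 genes of the interferon-γ route were read from the same fit. Of 14 tested, 4 were higher and 2 lower (background 3.56% and 5.19%), with a median log2 fold change of 0.09. The list was not split into genes that raise PD-L1 and genes that restrain it. Among those that rose were the transcription factors Stat2 (61.2 ± 3.21 to 75.0 ± 4.1 CPM, SD, n = 3 each, log2 fold change 0.29, edgeR adjusted p 0.0194), Irf2 (0.28) and Irf9 (0.26). Jak2 and Stat3 fell, Stat3 by 0.27 on the log2 scale (adjusted p in edgeR 0.028). Irf1, a factor known to act on the PD-L1 gene, had 123, 138 and 132 CPM in ITGA5 fl/fl and 113, 149 and 175 CPM in Myα5KO, which overlapped (0.15, edgeR adjusted p 0.499). The kinase gene Jak1 (-0.10), the receptor chains Ifngr1 (0.06) and Ifngr2 (-0.03), and Cmtm6 (-0.05), whose product keeps PD-L1 on the surface, were not called. Ifng itself was below the filter, at 0.455 and 0.389 CPM. Between 1 and 5 of these genes were called higher when a library was left out, and 0 on the FPKM scale with a filter.

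The second input read from the fit was CD40 and NF-κB signalling. As with the other pathway lists, its genes were chosen with earlier results of these data known. Of 20 genes, all tested, 9 were lower and 0 higher, against 5.19% of all tested genes called lower. A negative log2 fold change was seen in 19 of 20, against 6854 of all 14522 tested genes. The median of the list was -0.29. At an unadjusted p under 0.05 there were 15, against 23.1% of all tested genes, and DESeq2 called 10 lower and 0 higher. Nfkb1, which encodes p105 and p50, had 718, 673 and 671 CPM in ITGA5 fl/fl and 446.5, 463 and 370.4 CPM in Myα5KO (log2 fold change -0.69, SE 0.08, edgeR adjusted p 0.000359). All Myα5KO libraries were lower, replicate 3 the most. Map3k14, the kinase NIK of the alternative pathway, fell by 0.43 on the log2 scale. The list holds inhibitors as well as activators, and inhibitors were among those that fell: Traf3, which restrains NIK, by 0.56 and Nfkbib, an IκB, by 0.43, besides Nfkbia and Tnfaip3. Between 6 and 9 genes of the list were lower in the fits without a library, and 4 or 5 on the FPKM scale with a filter.

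**Figure D5:**
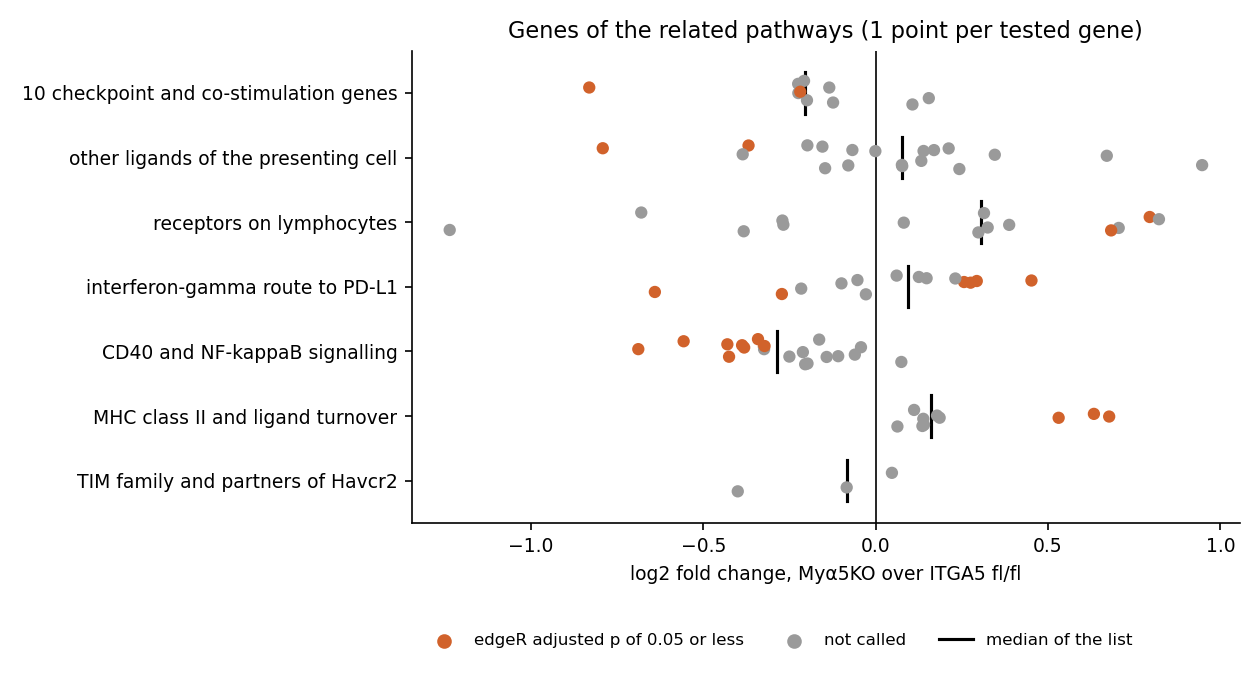
Log2 fold change (Myα5KO over ITGA5 fl/fl) of each tested gene, by list, in orange where called and with a bar at the list's median. Cd274 at -0.83 is the lowest point of its list, the interferon-γ route has called genes on both sides of 0, and 19 of the 20 CD40 and NF-κB genes lie below 0.

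Of 21 further ligands of presenting cells, 19 were tested, 0 were higher and 2 lower (background 3.56% and 5.19%), with a median of 0.08. At an unadjusted p under 0.05 there were 8, against 23.1% of all tested genes. Vsig4, a B7-related inhibitory ligand of resident macrophages, fell from 21.1 ± 3.94 to 12.2 ± 1.07 CPM (SD, n = 3 each, log2 fold change -0.79, edgeR adjusted p 0.00284). Pvr, the ligand of TIGIT and CD226, fell from 277 ± 18 to 214 ± 16.3 CPM (-0.37, edgeR adjusted p 0.00922). With library-size scaling 4 of these ligands were called higher. The MHC class II list of 10 genes had 3 higher and 0 lower, against 3.56% and 5.19% of all tested genes, with a median of 0.16. On the FPKM scale with a filter 1 was higher. March1, a ubiquitin ligase that removes CD86 and MHC class II from the surface, had 30.3, 32.9 and 27.7 CPM in ITGA5 fl/fl and 44.5, 46.8 and 49.7 CPM in Myα5KO (0.63, SE 0.08, edgeR adjusted p 0.000581). Ciita, the master regulator of MHC class II, rose by 0.68 and H2-DMb2 by 0.53. The class II genes H2-Aa (0.14), H2-Ab1 (0.11) and H2-Eb1 (0.14) were not called. Among the TIM family and partners of Havcr2, 3 of 5 were tested and 0 called (1 at an unadjusted p under 0.05, 0 with DESeq2).

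Most of the lymphocyte receptors read from the fit were scarce in these CD11b+ cells. Of 15, 14 were tested, 2 were higher and 0 lower (background 3.56% and 5.19%), with a median of 0.31. Taken by their role, Pdcd1 had 1.00 and 1.24 CPM in ITGA5 fl/fl and Myα5KO, Ctla4 1.39 and 1.81, Icos 0.691 and 0.742, and Cd28 6.65 and 8.24 CPM, and none of these was called. The highest of the list was Lag3, with 13.8 and 17.3 CPM (log2 fold change 0.33, edgeR adjusted p 0.268). Tnfrsf9, which encodes 4-1BB, had 4.71 and 3.63 CPM (-0.38, edgeR adjusted p 0.271). The called receptors were Btla (4.68 ± 0.308 to 8.11 ± 1.68 CPM, edgeR adjusted p 0.0103), an inhibitory receptor of B cells and T cells, and Cd2 (4.12 to 6.63 CPM, edgeR adjusted p 0.0429). DESeq2 called 1 receptor, and 0 to 2 were called when a library was left out, 0 without ITGA5 fl/fl replicate 3.

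Cells other than macrophages that can carry these ligands were followed by marker sums, compared with exact two-sided permutation tests whose smallest p is 0.1. Dendritic cell markers summed to 150 to 183 CPM in ITGA5 fl/fl and 177 to 203 CPM in Myα5KO (exact p 0.2, with 1 of 10 tested genes higher), and B-cell markers to 75.9 to 115 and 113 to 184 CPM (exact p 0.2, 2 of 6 higher). The monocyte sum was 303 to 385 CPM against 459 to 477 CPM (3 of 6 higher), the granulocyte sum 29.9 to 51.8 against 69.3 to 191 CPM (5 of 6 tested genes higher) and the T and NK cell sum 23.3 to 25.7 against 28.0 to 29.1 CPM (0 of 4 tested), each at exact p 0.1. The T and NK cell sum averaged 24.2 and 28.6 CPM in ITGA5 fl/fl and Myα5KO, of which Cd4 alone gave 19.3 and 20.9 CPM. Among T-cell markers Cd3e, Cd3d, Cd3g and Cd8a were below 1 CPM, as was Ly6g of neutrophils. Fibroblast markers summed to 1717 and 1387 CPM on average (exact p 0.1, 1 of 6 lower) and cardiomyocyte markers to 19.5 and 13.8 CPM (exact p 0.1, 2 of 6 lower). Endothelial markers summed to 316 and 327 CPM (exact p 0.5, 1 of 6 higher and 1 lower). Beside these counts of called markers, 3.56% of all tested genes were higher and 5.19% lower. After adjustment over the 9 sums every p was 0.15 or more. The macrophage sum was 15089 to 15326 CPM against 13284 to 14094 CPM (exact p 0.1, adjusted 0.15), of which Cd14 alone went from 4755 to 3489 CPM. The difference between the mean macrophage sums was -1545 CPM, and -738 CPM with library-size scaling. The part of these shifts in the changes of Cd274 and Icosl was not tested.

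The genes whose profile over the 6 libraries came nearest to Cd274, among 8301 with a mean of at least 10 CPM, were Cxcl2, Mllt6 and Mrm2. Their root mean square differences from Cd274, on the log2 scale after centring, were 0.0451, 0.0487 and 0.0649. Cxcl2, a chemokine, had 3128 and 1787 CPM on average in ITGA5 fl/fl and Myα5KO (log2 fold change -0.81), and Mllt6 381 and 224 CPM (-0.77). For Icosl the nearest were Traf6, Gtf2b and Vapa, at 0.015, 0.0161 and 0.0177.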

How the data were processed

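RNA of Ly6G-, CD11b+ cardiac cells from 3 ITGA5 fl/fl and 3 Myα5KO infarcts was sequenced as polyadenylated, paired-end libraries. The authors removed low-quality reads, aligned the rest to GRCm38 with TopHat2 2.0.9 and counted reads per gene with HTSeq 0.6.1. The deposited counts are whole reads, without normalization. The deposited FPKM equal the count divided by gene length and a constant per library that is proportional to the DESeq2 size factor, as a comparison of both tables showed. Handling of strand and multi-mapped reads is not given in the sources used here.

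Differences were fitted in edgeR 4.0.16 (quasi-likelihood F test, R 4.3.3) after TMM scaling and the default filter (minimum count 10, minimum total 15). P-values are two-sided, adjusted by the Benjamini-Hochberg method over all 14522 tested genes, and called at 0.05 or less. The model held the group only. DESeq2 1.42.0, a later release of the tool that the study used, was run as an alternative. It called 411 genes higher and 759 lower, fewer in each direction than the study reported for these cells. The cause of that difference was not tested. Other alternatives were limma-voom and limma on log2(FPKM + 1) and log2(FPKM + 0.1) (limma 3.58.1), other scalings and filters, an adjusted p of 0.01, a test against 1.5-fold, the replicate number as a block, and each library left out. Where a fit left 2 libraries in a group, the spread was pooled over both groups. The FPKM filter was 1 in at least 3 libraries.

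The 10 genes, the 6 pathway lists and the 9 marker lists were chosen with earlier results of these data known. Named are the 10 genes, Itga5, up to 4 called genes per direction of each pathway list by size of change, and the 3 nearest profiles of Cd274 and of each called gene (log2 of CPM + 0.5). A gene that this rule names is not reported here. Other genes named were chosen after their values were seen, or by their role. The scripts were tested on simulated data. No source says that replicates pair across groups. Counts carry no molecular identifiers. In the main fit, errors and p-values from edgeR took in the spread between libraries of a group as well as counting error.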

Additional observations from a re-analysis of the deposited data

How the results depend on the processing

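Cd274 kept its direction under all 18 alternatives and its call in 17. The number of the 10 genes called lower was 2 in the main fit (Cd274 and Icosl). It was 1 with limma-voom, library-size scaling, no count filter, each FPKM setting, the replicate block and an adjusted p of 0.01. In the test against 1.5-fold it was 0, with Cd274 at an adjusted p of 0.209 (glmTreat in edgeR). It was 3 with upper quartile scaling and with at least 10 counts in every library (Cd86 besides both). It was 1 in every fit without a single library, so Icosl lost its call there. The number called higher, 0 with edgeR, was 1 with library-size scaling (Vsir). Pdcd1lg2 ranged from -0.013 (without Myα5KO replicate 3, where its sign turned) to 0.25 (without ITGA5 fl/fl replicate 1) and was called in no setting. Over all genes, library-size scaling gave 1212 higher, no count filter 798 higher, log2(FPKM + 1) 150 higher and 322 lower, log2(FPKM + 0.1) 142 and 306, log2(FPKM + 1) without a filter 2 and 8, an adjusted p of 0.01 128 and 342, and the test against 1.5-fold 1 and 14. Without single libraries the counts ran from 187 to 420 higher and from 429 to 671 lower. Without a count filter the spread of the single gene no longer entered the p-values, so the ranges of adjusted p leave them out. Apart from the construction of the stricter settings and of the smaller groups, the cause was not tested.

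Replicate numbers are shared by both groups in the labels. Deviations of same-numbered libraries correlated at 0.0509, -0.0576 and 0.0434 over genes, and for numbers 1 and 2 a different number correlated more (0.0567 and 0.0634), so the numbers were not taken as pairs. With the replicate block 464 genes were higher and 717 lower, Cd274 was at -0.83 and Icosl at -0.22 was not called. Depth limited Pdcd1lg2, with 26 to 41 counts per library.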
